A study of Mus musculus with 6 samples.

Results

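The neuregulin ligands Nrg1, Nrg2 and Nrg3, the ErbB receptors Erbb2, Erbb3 and Erbb4, Lingo1, the Notch pair Jag1 and Notch1, and the adhesion molecule L1cam were taken as 10 genes through which neurons and cells of the oligodendrocyte lineage signal to each other. They were matched by gene symbol in the longer of the deposited gene tables, which lists 13192 genes. A row was found for 8 of the 10, and Erbb2 and Jag1 are not analysed here. The series asked how deletion of Rheb, a small GTPase that activates the growth-controlling kinase complex mTORC1, changes the RNA on tagged ribosomes of mouse cortex. The Rheb cKO group held 3 libraries from mice with floxed Rheb alleles on both chromosomes, 1 Ribo-HA knock-in allele and Syn-Cre, and its genotype label calls it a Rheb knockdown. Syn-Cre is a name for Cre recombinase driven by the neuronal synapsin promoter. The Control group held 3 libraries with the same floxed Rheb and Ribo-HA alleles and no Cre in their titles. All mice were at postnatal day 25, and the RNA came from cortical lysate precipitated with an anti-HA antibody, which recovers ribosomes that carry the HA tag with their mRNAs. The loss of Rheb and the presence of Cre cannot be told apart between these groups, and whether the Control ribosomes carried the tag without Cre is not stated.

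Neuregulins are growth factors with an EGF-like domain, made as membrane-bound precursors on axons and cut by proteases such as Bace1. They bind ErbB3 and ErbB4, which pair with ErbB2 or with each other and pass the signal to PI3 kinase and MAP kinase pathways. In peripheral nerve, axonal Nrg1 sets how much myelin a Schwann cell makes, while in the central nervous system it can promote myelination but is not strictly required. Notch1 on oligodendrocyte precursors holds back differentiation when bound by Jag1 on axons, and LINGO-1, a leucine-rich repeat protein of neurons and oligodendrocytes, also restrains differentiation and myelination. L1cam is an axonal adhesion molecule of the immunoglobulin family.

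Each gene had a single FPKM in each group, pooled by the authors over its 3 libraries. FPKM divides a gene's fragments by its exonic length and by the mapped total, so levels can be set side by side between genes. The depth of the libraries and the spread between them are unknown here, and no SD can be given. The measure of error is the authors' Cuffdiff q-value, a p-value adjusted over the whole table, and a gene was called at a q under 0.05. Separate mice are not named for the libraries in the labels, so the q-values may measure only the spread between libraries. Rheb itself stood at 9.20 FPKM in Rheb cKO and 22.7 FPKM in Control (log2 fold change -1.30, q = 0.00161, Cuffdiff, in the authors' deposited table). The labels name neurons as the cell type, yet markers of other cells were present: Mbp of myelin stood at 713.0 FPKM in Rheb cKO and 1973 FPKM in Control, while the neuronal gene Snap25 stood at 981.1 FPKM in Rheb cKO and 985.9 FPKM in Control.

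Erbb3 was the member that fell, to less than 50% of its Control level, and the other measured members lay slightly above Control without passing the test. In the authors' deposited table, 1 of the 8 measured members was called lower and 0 higher by Cuffdiff, and Erbb3 was also the single member at an unadjusted p under 0.05, which 21.2% of all genes passed. At a q under 0.01 the count of members was again 1, where 4.71% of all genes were called. Over all genes 8.72% were called at a q under 0.05, 4.14% higher and 4.58% lower, so a count of 1 in 8 (12.5%) is near the background. The median log2 fold change of the 8 members was 0.19, against 0.03 over all 13175 genes with a finite fold. The members not called ran from 0.10 to 0.35 on the log2 scale, with q between 0.522 and 0.776 in the authors' deposited table, and 54.6% of all genes also had a fold above 0.

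**Figure D1:**
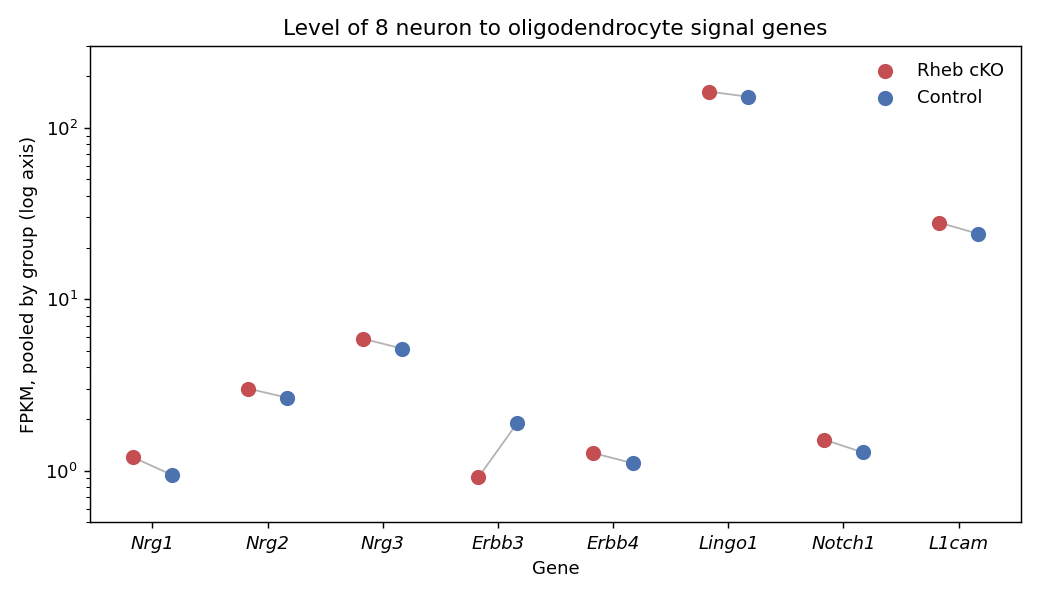
Pooled FPKM (log axis) of the 8 measured genes, with Rheb cKO (red) left of Control (blue) and a line joining the groups of each gene; no error bar can be drawn because the authors deposited 1 value per group. Erbb3 is the gene whose Rheb cKO point, 0.913 FPKM, lies below its Control point, 1.90 FPKM.

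The neuregulin ligands were present at low to moderate levels and did not pass the test. Nrg3, a neuregulin largely restricted to the nervous system that binds ErbB4, was the most abundant of them at 5.88 FPKM in Rheb cKO and 5.15 FPKM in Control (log2 fold change 0.19, q = 0.522 by Cuffdiff in the authors' deposited table). Nrg2, which binds ErbB3 and ErbB4, stood at 3.01 FPKM in Rheb cKO and 2.66 FPKM in Control (0.18, q = 0.776 in the authors' deposited table). Nrg1, the best studied ligand of myelinating cells, stood at 1.20 FPKM in Rheb cKO and 0.943 FPKM in Control (0.35, q = 0.565 in the authors' deposited table). All of them were listed higher in Rheb cKO, by differences that Cuffdiff did not separate from the spread between libraries. The order Nrg3, Nrg2, Nrg1 was the same in both groups. Nrg3 made up 58.3% of the summed FPKM of the 3 genes in Rheb cKO and 58.8% in Control, while Nrg1 made up 11.9% in Rheb cKO and 10.8% in Control.

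The value of Nrg1 depends on the gene model behind it. In the mm10 build the authors' table places Nrg1 at chr8:31818028-31918203, on the minus strand, a span of 100176 bases. In GENCODE M21, which annotates this build, the gene runs from 31814551 to 32884029, a span of 1069479 bases. Of its 12 protein-coding transcripts, 10 start outside the interval of the table, and 12 of 44 distinct exons lie outside it. Transcripts that begin upstream were therefore counted, if at all, by their shared downstream exons. Nrg3 is also a gene of about this length (chr14:38368952-39473088, minus strand), and the table covers all of it. The 3 neuregulin genes lie on chromosomes 8, 18 and 14 and were counted separately.

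Among the ErbB receptors, Erbb3 fell and Erbb4 did not pass the test. Erbb3, a receptor with a weak or inactive kinase that signals through its partner, stood at 0.913 FPKM in Rheb cKO and 1.90 FPKM in Control. This left 47.9% of the Control level, a log2 fold change of -1.06 (q = 0.00161, Cuffdiff) in the authors' deposited table. Its Cuffdiff p-value, 5e-05, is the smallest the authors' deposited table holds, and many other genes share it, Gab1 and Mag among them. Erbb3 lies at chr10:128567523-128589652 on the minus strand, where GENCODE M21 lists 1 transcript with 28 exons, and no exon of another gene overlaps it there. Only 230 of the 13175 genes with a finite fold had a lower log2 fold change. Its level was low in both groups, at percentile 14.2 of mean FPKM over the table.

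Erbb4, the neuregulin receptor of interneurons with an active kinase, stood at 1.27 FPKM in Rheb cKO and 1.11 FPKM in Control (log2 fold change 0.20, q = 0.723 by Cuffdiff in the authors' deposited table). The order of the receptors therefore differed between the groups: the ratio of Erbb3 to Erbb4 FPKM was 0.721 in Rheb cKO and 1.72 in Control. Of the FPKM summed over both genes, Erbb3 made up 41.9% in Rheb cKO and 63.3% in Control. Egfr, the EGF receptor and a further member of the family, stood at 0.800 FPKM in Rheb cKO and 0.726 FPKM in Control (0.14, q = 0.873 in the authors' deposited table). Whether Erbb3 and Erbb4 differ in their response was not tested, since no spread between libraries is at hand.

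Erbb3 is expressed in the oligodendrocyte lineage and little in neurons, and markers of mature oligodendrocytes were lower in the same comparison. Of 20 such markers, all measured, 19 were called lower and 0 higher by Cuffdiff, where 8.72% of all genes were called. At an unadjusted p under 0.05 the count was also 19, where 21.2% of all genes passed. Their median log2 fold change was -1.59, and their summed level was 1418 FPKM in Rheb cKO and 4120 FPKM in Control, with no marker at 0. The markers with the lowest folds in the authors' deposited table were the iron carrier gene Trf (-2.89), the gap junction gene Gjb1 (-2.05) and the myelin gene Mog (-1.96), each with q = 0.00161. Erbb3, at -1.06 in the authors' deposited table, fell by less than 19 of the 20 markers; the exception was Enpp6, a gene of newly formed oligodendrocytes (-0.32, q = 0.620). In such precipitates fewer cells of a type, less RNA per cell and a different amount of RNA carried along without the tag cannot be told apart. The part of the oligodendrocyte markers in the value of Erbb3 was not tested.

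Markers of oligodendrocyte precursors, which also express Erbb3, had a median nearer to 0. Of 12 markers, 3 were called lower and 0 higher by Cuffdiff, the same number as at an unadjusted p under 0.05. Over all genes 8.72% were called and 21.2% passed that unadjusted p. The median log2 fold change of the precursor markers was -0.04. The 3 called lower were Olig1 (-0.95, q = 0.00161), Gpr17 (-0.58, q = 0.00161) and Sox10 (-0.45, q = 0.0170) in the authors' deposited table. Committed or mature oligodendrocytes express these genes as well. Olig2, a lineage gene on the same list, was not called (-0.26, q = 0.245 by Cuffdiff in the authors' deposited table). Pdgfra, the defining receptor of precursors, stood at 7.20 FPKM in Rheb cKO and 7.25 FPKM in Control (q = 0.986 in the authors' deposited table). All 12 precursor markers had a higher log2 fold change than Erbb3. The summed precursor level was 435.5 FPKM in Rheb cKO and 558.4 FPKM in Control. Most of this difference lay in Olig1, at 120.4 FPKM in Rheb cKO and 232.0 FPKM in Control. Bcan, the other large term, stood at 190.3 FPKM in Rheb cKO and 181.4 FPKM in Control.

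**Figure D2:**
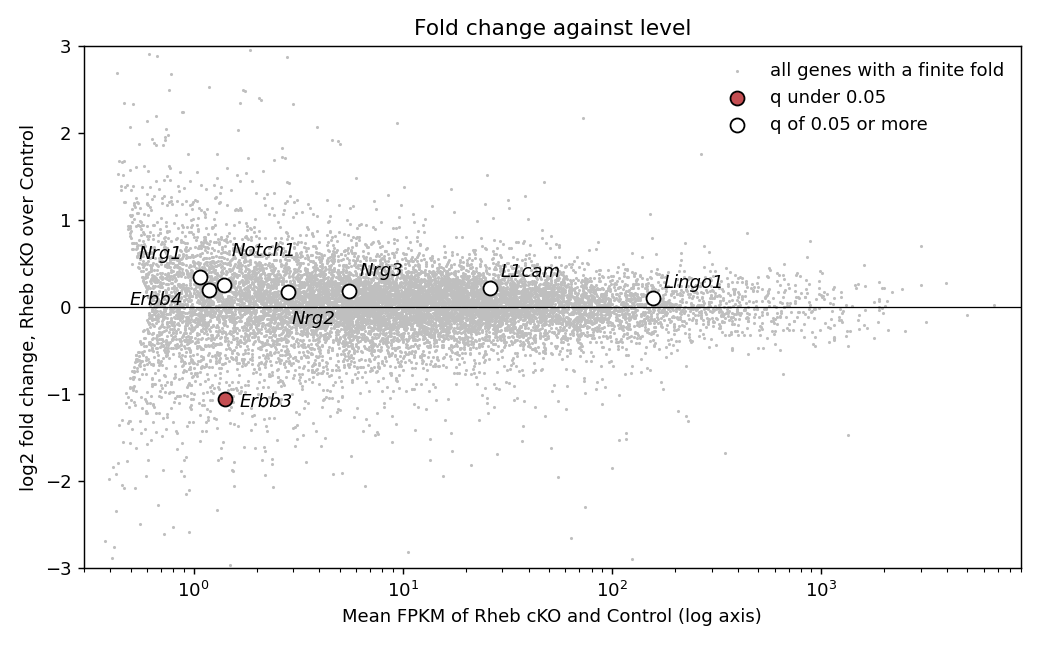
The log2 fold change of Rheb cKO over Control against mean FPKM (log axis) for all genes with a finite fold (grey) and the 8 measured genes (circles, filled at a q under 0.05); 12 grey genes lie outside the axes. Erbb3, at -1.06, is the filled circle, and the 7 open circles lie between 0.10 and 0.35.

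The genes whose pair of group values lay closest to that of Erbb3 were Aif1l and Mybpc1. Closeness was the distance between log2 FPKM over the 2 group values, which is a thin basis for likeness. Aif1l stood at 0.894 FPKM in Rheb cKO and 1.93 FPKM in Control, a distance of 0.035, and was called lower (-1.11, q = 0.0194 by Cuffdiff in the authors' deposited table). Mybpc1 stood at 0.890 FPKM in Rheb cKO and 1.91 FPKM in Control, a distance of 0.037, and was not called (-1.10, q = 0.131 in the authors' deposited table). At nearly the same levels and folds the q-values of these genes thus differed widely.

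Of the other genes of the neuregulin and ErbB pathway, 19 of 25 were measured, and 1 was called lower and 0 higher by Cuffdiff, with 4 at an unadjusted p under 0.05. Their median log2 fold change was -0.03. Over all genes 8.72% were called and 21.2% passed that unadjusted p. The gene that fell was Gab1, an adaptor that docks PI3 kinase downstream of receptor tyrosine kinases, at 2.87 FPKM in Rheb cKO and 4.90 FPKM in Control (-0.77, q = 0.00161, in the authors' deposited table). The neuregulin-cutting protease Bace1 stood at 23.2 FPKM in Rheb cKO and 21.3 FPKM in Control (0.12, q = 0.820 in the authors' deposited table). Rnf41, the ubiquitin ligase that directs ErbB3 to degradation, stood at 16.5 FPKM in Rheb cKO and 13.0 FPKM in Control and was not called (0.34, q = 0.0675 in the authors' deposited table). Grb2, the adaptor that links receptors to Ras, stood at 91.8 FPKM in Rheb cKO and 79.7 FPKM in Control (0.20, q = 0.329 in the authors' deposited table).

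Lingo1 was the most abundant member in both groups. It stood at 162.5 FPKM in Rheb cKO and 151.7 FPKM in Control, at percentile 94.5 of mean FPKM over the table, and its log2 fold change of 0.10 was not called (q = 0.769 by Cuffdiff in the authors' deposited table). Relative to the median fold of 21 neuronal markers the sign of this value turned, to -0.052. Its level was 5.81 times that of L1cam, the next member in order, in Rheb cKO and 6.31 times in Control. The table places Lingo1 at chr9:56618475-56685253 on the minus strand of mm10, while GENCODE M21 extends the gene to 56796468. There 7 of its 20 distinct exons, upstream of the interval of the table, lie outside.

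Lingo1 acts in a receptor complex for Nogo and other myelin proteins. Of 15 genes of this group 13 were measured, with 1 called lower and 0 higher by Cuffdiff, 3 at an unadjusted p under 0.05, and a median log2 fold change of -0.08. A count of 1 in 13 is near the share of 8.72% over all genes, of which 21.2% passed that unadjusted p. The gene that fell was Mag, the myelin-associated glycoprotein, at 62.5 FPKM in Rheb cKO and 170.4 FPKM in Control (-1.45, q = 0.00161, in the authors' deposited table). Mag is also 1 of the mature oligodendrocyte markers described above. Rtn4r, the Nogo receptor itself, stood at 104.5 FPKM in Rheb cKO and 121.4 FPKM in Control (-0.22, q = 0.308 in the authors' deposited table). Rtn4, which encodes Nogo, stood at 287.6 FPKM in Rheb cKO and 242.8 FPKM in Control (0.24, q = 0.208 in the authors' deposited table). The ratio of Lingo1 to Rtn4r FPKM was 1.56 in Rheb cKO and 1.25 in Control, without a test of the difference.

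**Figure D3:**
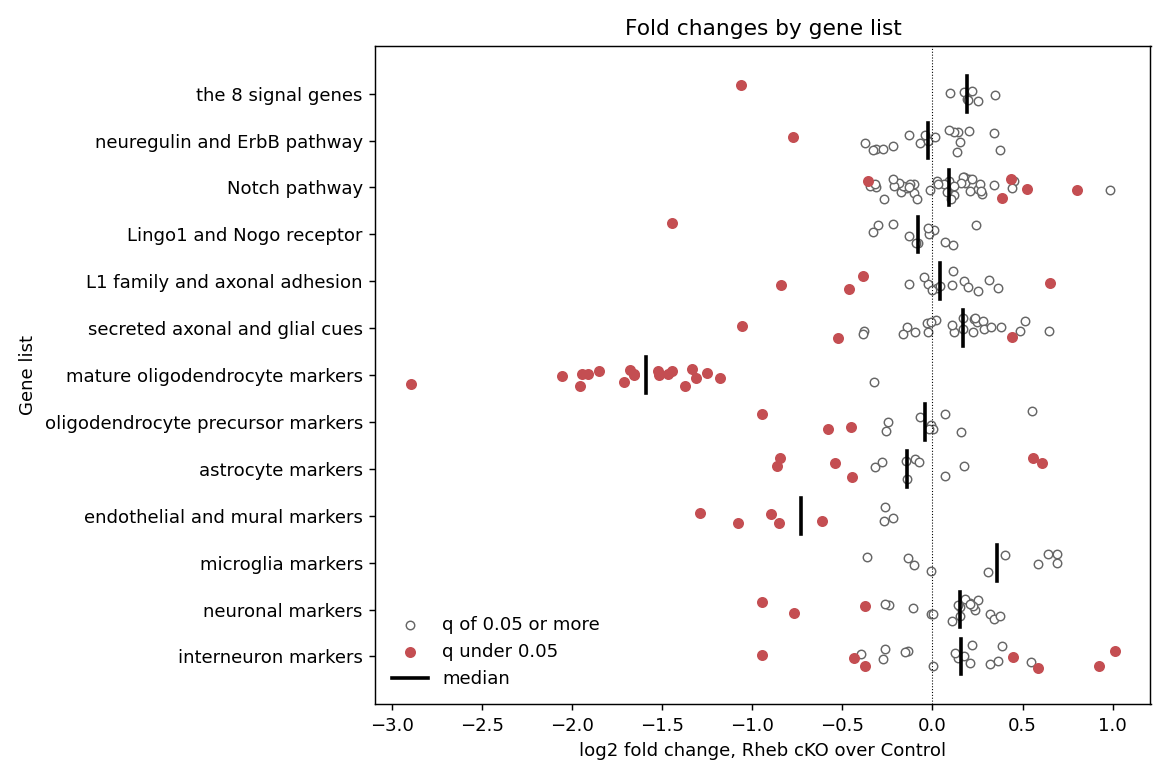
The log2 fold changes of Rheb cKO over Control of the 8 measured genes, of 5 pathway lists and of 7 marker lists; each circle is a gene, filled at a q under 0.05, and the bar is the median of the list. Mature oligodendrocyte markers have a median of -1.59, whereas the medians of the pathway lists lie between -0.08 and 0.17.

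Notch1 was expressed at a low level and did not pass the test. It stood at 1.52 FPKM in Rheb cKO and 1.28 FPKM in Control (log2 fold change 0.25, q = 0.761 by Cuffdiff in the authors' deposited table). Notch2 (0.27) and Notch3 (0.26) had similar folds in the authors' deposited table at levels under 1 FPKM in both groups. Notch4, a receptor best known from endothelium, stood at 5.85 FPKM in Rheb cKO and 2.96 FPKM in Control, a difference that was not called (0.98, q = 0.280 in the authors' deposited table). Notch1 lies at chr2:26457903-26516663 on the minus strand of mm10, and the interval of the table reaches beyond this end of the gene, starting at 26445696. On the opposite strand, exons of 0610009E02Rik cover 7.50% of its exonic bases and those of Gm13568 cover 2.91%. The kit keeps strand, but the strand setting of the counting is not given in the sources used here, so a contribution of these RNAs was not tested.

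Of the other Notch pathway genes 45 of 47 were measured, and 4 were called higher and 1 lower by Cuffdiff, with a median log2 fold change of 0.09. This share of 5 in 45 is near the share of 8.72% over all genes. At a q under 0.01 the count was 0 by Cuffdiff, where 4.71% of all genes were called. At an unadjusted p under 0.05 it was 9, where 21.2% of all genes passed. Dner, a neuronal transmembrane protein with EGF repeats described as a Notch ligand, rose to 27.6 FPKM in Rheb cKO, against 21.1 FPKM in Control (0.39, q = 0.0270, in the authors' deposited table). Lfng, a Fringe glycosyltransferase that changes which ligands Notch responds to, rose to 10.1 FPKM in Rheb cKO, against 6.996 FPKM in Control (0.53, q = 0.0370, in the authors' deposited table). Dtx4, a Deltex ubiquitin ligase, rose to 12.9 FPKM in Rheb cKO, against 9.54 FPKM in Control (0.43, q = 0.0157, in the authors' deposited table). Neurl1a, a ubiquitin ligase that acts on Notch ligands, fell to 55.6 FPKM in Rheb cKO, against 71.2 FPKM in Control (-0.36, q = 0.0448, in the authors' deposited table). The genes called in this group have different roles, and at a share near that of all genes no change of the pathway can be read from them.

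Of 6 target genes of Notch, 1 was called higher and 0 lower by Cuffdiff, where 8.72% of all genes were called. Heyl, a transcriptional repressor of the Hey family, rose to 1.42 FPKM in Rheb cKO, against 0.816 FPKM in Control (0.80, q = 0.0467, in the authors' deposited table). Hes1 stood at 14.3 FPKM in Rheb cKO and 15.7 FPKM in Control (-0.13, q = 0.894 by Cuffdiff in the authors' deposited table). Hes5, which Notch signalling induces in glial precursors and astrocytes, stood at 19.1 FPKM in Rheb cKO and 22.2 FPKM in Control (-0.22, q = 0.524 in the authors' deposited table). Of the 6 targets 3 had a fold above 0 and 3 below, but 5 of these folds were not called. The ligand Jag2 stood at 2.60 FPKM in Rheb cKO and 2.30 FPKM in Control (0.18, q = 0.711 in the authors' deposited table).

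Several Notch genes are also made by astrocytes and vessel cells, and markers of astrocytes and of mural cells, the contractile cells around vessels, were among the genes called. Over all genes 8.72% were called. Of 14 astrocyte markers, 2 were called higher and 4 lower, with a median log2 fold change of -0.14. Their summed level was 2436 FPKM in Rheb cKO and 3050 FPKM in Control. Ntsr2 (-0.86, q = 0.00161) and S100b (-0.85, q = 0.00161) fell and Gfap (0.61, q = 0.0189) rose in the authors' deposited table. Of 14 endothelial and mural markers 8 were measured, with 5 called lower and 0 higher by Cuffdiff, a median of -0.73 and a summed level of 47.8 FPKM in Rheb cKO and 87.9 FPKM in Control. Kcnj8 (-1.29, q = 0.00161), Vtn (-1.08, q = 0.00161) and Acta2 (-0.90, q = 0.0218) led them in the authors' deposited table, followed by Myl9 and Rgs5, and these 5 are all mural markers. A further mural marker, Pdgfrb (-0.22, q = 0.548 by Cuffdiff), was not called in the authors' deposited table. The endothelial markers measured, Cldn5 (-0.27, q = 0.648) and Ly6c1 (-0.26, q = 0.741), were not called there either. The other 6 endothelial markers of the list are not analysed here. No measured marker of these lists was at 0, and their part in the values of Notch1, Heyl and the other Notch genes was not tested.

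**Figure D4:**
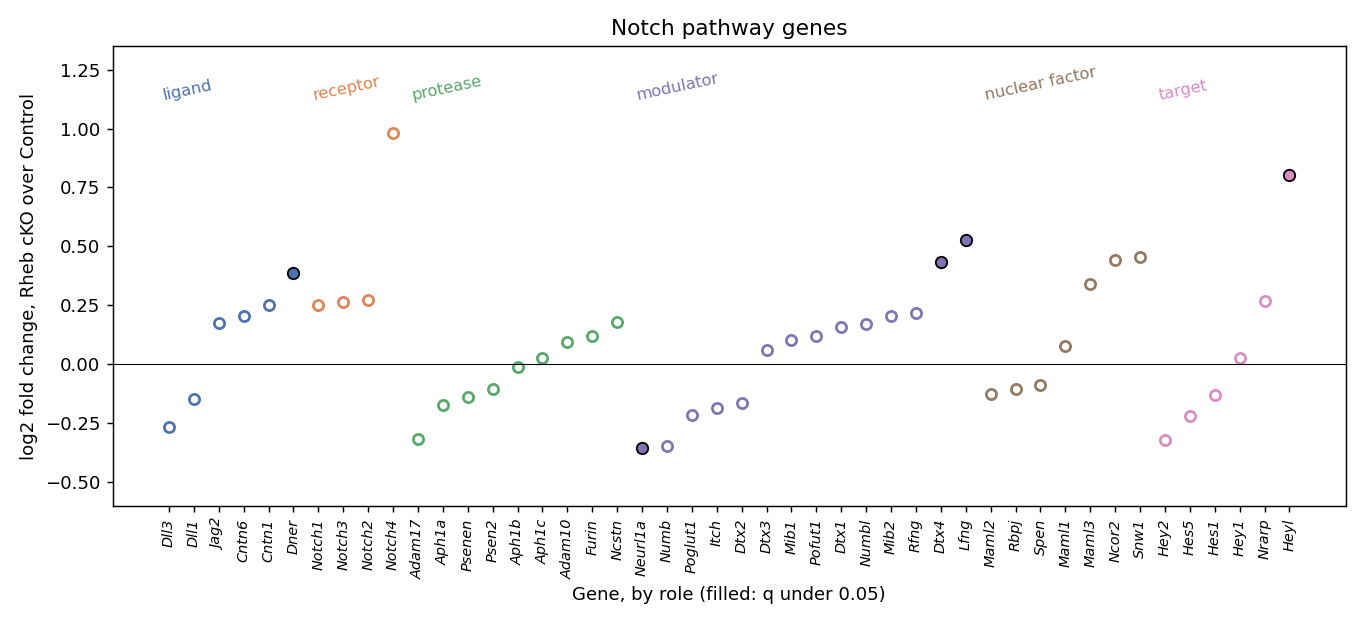
The log2 fold change of Rheb cKO over Control of Notch1 and 45 other Notch pathway genes, ordered by role and then by fold; filled circles have a q under 0.05. The filled genes are Dner, Neurl1a, Dtx4, Lfng and Heyl, and Notch4, at 0.98, is open.

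L1cam was the second most abundant member. It stood at 28.0 FPKM in Rheb cKO and 24.1 FPKM in Control (log2 fold change 0.22, q = 0.732 by Cuffdiff in the authors' deposited table). The gene lies at chrX:73853778-73896105 on the minus strand of mm10. Arhgap4 on the same strand shares 100 exonic bases with it, 1.36% of the exonic bases of L1cam, and the interval of the table reaches beyond the gene to 73921944.

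Its relatives and other axonal adhesion genes were called in both directions, 1 of 17 measured genes higher and 3 lower, with a median log2 fold change of 0.04. Over all genes 4.14% were called higher and 4.58% lower. Chl1, the close homolog of L1, rose to 6.47 FPKM in Rheb cKO, against 4.11 FPKM in Control (0.65, q = 0.00161, Cuffdiff, in the authors' deposited table). Jam3, a junctional adhesion molecule, fell to 6.63 FPKM in Rheb cKO, against 11.9 FPKM in Control (-0.84, q = 0.00161, in the authors' deposited table). Cntn2, a contactin of the juxtaparanode found on axons and oligodendrocytes, fell to 11.4 FPKM in Rheb cKO, against 15.7 FPKM in Control (-0.46, q = 0.00956, in the authors' deposited table). Nfasc, which has a neuronal form at the node and a glial form at the paranode, fell to 28.7 FPKM in Rheb cKO, against 37.5 FPKM in Control (-0.38, q = 0.0200, in the authors' deposited table). The table gives 1 value for both forms of Nfasc. The part of the mature oligodendrocyte markers, with their median of -1.59, in these values was not tested. Nrcam, another L1 relative, stood at 14.0 FPKM in Rheb cKO and 14.3 FPKM in Control (-0.03, q = 0.953 in the authors' deposited table). Cntn1, an axonal contactin that can also bind Notch, stood at 27.9 FPKM in Rheb cKO and 23.5 FPKM in Control (0.25, q = 0.191 in the authors' deposited table).

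The members made mainly by neurons, the neuregulins, Erbb4, Lingo1 and L1cam, had log2 fold changes between 0.10 and 0.35, none of them called. The median of the neuronal markers lay in this range, but so did Notch1, at 0.25. A link between these members and the neuronal markers was not tested. Of 21 neuronal markers 0 were called higher and 3 lower by Cuffdiff, with 9 at an unadjusted p under 0.05. Over all genes 8.72% were called and 21.2% passed that unadjusted p. Their median log2 fold change was 0.15 and their summed level was 5838 FPKM in Rheb cKO and 5912 FPKM in Control. Those that fell were Pvalb (-0.94, q = 0.00161), Nefm (-0.77, q = 0.00291) and Sst (-0.38, q = 0.0213) in the authors' deposited table. For Erbb4 the markers of interneurons are the closer comparison. Of 22 such genes, some of them shared with the neuronal list, 4 were called higher and 3 lower, and the median was 0.16. This count of 7 depended on the threshold, with 3 at a q under 0.01 and 13 at an unadjusted p under 0.05. The shares over all genes were 8.72% at a q under 0.05, 4.71% at a q under 0.01 and 21.2% at the unadjusted p. Reln (1.01, q = 0.00161), Htr3a (0.92, q = 0.00161), Maf (0.59, q = 0.0367) and Lhx6 (0.45, q = 0.0348) rose in the authors' deposited table. Pvalb, the marker of fast-spiking cells that are rich in ErbB4, fell there, as did Npy (-0.43, q = 0.0104) and Sst. Erbb4, with a log2 fold change of 0.20, lay between the genes that rose and those that fell. The part of the interneuron classes in its value was not tested.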

How the data were processed

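Ribosome-bound RNA of mouse cortex was sequenced in 3 Rheb cKO and 3 Control libraries. Per the labels' protocols the kit keeps strand. TopHat2 (version 2.1.0), Cuffdiff (version 2.2.1) and the mm10 build are named in the submitters' processing notes, without settings. The deposited table holds, per the file headers, a pooled FPKM for each group, the log2 ratio of the Rheb cKO to the Control FPKM without a pseudocount, and a Cuffdiff score, p-value and q-value computed by the authors for each gene. Groups follow the sample titles. Depth per library is unknown, so no counting interval is given. Counts of called genes and medians were computed here with Python 3.11.15, numpy 2.4.6 and pandas 2.3.3, and no test of own was run. The adjustment code was tested on simulated p-values; applied to the deposited p-values it differed from the deposited q by at most 7.27e-05. Positions and exons came from GENCODE M21, where 99.7% of gene IDs were found. The 17 genes listed at 0 in a group give an infinite fold and do not enter medians. The shorter deposited table holds genes called in the longer one and was not used.

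The members, the 5 pathway lists, the 7 marker lists and the tests were chosen with earlier results of these data known. The rule for naming took all members, up to 5 called genes per pathway list, up to 3 per marker list (the 2 most abundant where none was called), Rheb, and the 2 genes nearest to each called member. A gene of the Notch list is not reported here. Other genes named were chosen after their values were seen. Alternatives were other thresholds, adjustments, pseudocounts and scalings.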

Additional observations from a re-analysis of the deposited data

How the results depend on the processing

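The call of Erbb3 and the absence of a call for the other 7 members held under each alternative run: a q under 0.01, an unadjusted p under 0.05, and adjustment limited to genes averaging at least 1 FPKM or to protein-coding genes. These runs could hardly change a call. Erbb3 has the smallest Cuffdiff p-value of all genes, 5e-05, and the lowest unadjusted p of the other 7 was 0.201. The sign of each member's fold also held under the pseudocounts and scalings, except that of Lingo1, which turned to -0.052 when folds were rescaled by the median of the neuronal markers, a shift of 0.15 on the log2 scale. The median of the members, 0.19, was 0.14 with 1 added to each FPKM, 0.18 with 0.1 added, 0.16 when recentred on the median gene, 0.18 after upper-quartile scaling and 0.042 relative to the neuronal markers. Relative to the median FPKM of the neuronal markers, Erbb3 in Rheb cKO stood at 65.6% of Control (47.9% unscaled) and Nrg3 at 156.2% (114.1% unscaled); the middle gene of that list is Nefm in Rheb cKO and Nefl in Control, and Nefm fell. Relative to the median fold of the same markers the log2 fold change was -1.21 for Erbb3 (-1.06 unscaled) and 0.039 for Nrg3 (0.19 unscaled), which for both genes is a move the other way. At a q under 0.01 the Notch pathway had 0 calls by Cuffdiff (5 at a q under 0.05). At an unadjusted p under 0.05 the Notch pathway had 9 of 45 measured genes and the neuregulin and ErbB pathway 4 of 19. The Lingo1 and Nogo receptor genes had 3 of 13 and the secreted cues 9 of 27. The interneuron markers had 13 of 22 (7 at a q under 0.05, 3 at a q under 0.01). Over all lists the count was 85 (54 at a q under 0.05, of which 19 were mature oligodendrocyte markers). Of all genes 21.2% passed the unadjusted p, 8.72% were called at a q under 0.05 and 4.71% at a q under 0.01. No paired analysis was possible because the deposited values are pooled by group, and no library could be left out for the same reason. The fragments behind each FPKM are unknown, so the precision that depth gives could not be stated for any gene.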

Other observations

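Other secreted cues between axons and oligodendrocytes, and their receptors, were called at a share near that of all genes. Of 30 such genes 27 were measured, with 1 called higher and 2 lower, where 8.72% of all genes were called, and a median log2 fold change of 0.17. Gpr37, a receptor of oligodendrocytes that holds back their maturation, fell to 2.73 FPKM in Rheb cKO, against 5.67 FPKM in Control (-1.06, q = 0.00161, Cuffdiff, in the authors' deposited table), a fold close to that of Erbb3. Lgi3, a secreted protein of the LGI family, fell to 28.4 FPKM in Rheb cKO, against 40.9 FPKM in Control (-0.53, q = 0.00161, in the authors' deposited table). Adgrg1, an adhesion receptor of precursor cells, rose to 21.9 FPKM in Rheb cKO, against 16.1 FPKM in Control (0.44, q = 0.0189, in the authors' deposited table). The precursor growth factor Pdgfa stood at 31.5 FPKM in Rheb cKO and 32.2 FPKM in Control (-0.03, q = 0.966 in the authors' deposited table).

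Over the 5 pathway lists together, 6 of 118 distinct measured genes were called higher and 8 lower, a share of 11.9% where 8.72% of all genes were called, with a median log2 fold change of 0.04. Of 12 microglia markers 10 were measured, with 0 called by Cuffdiff and 3 at an unadjusted p under 0.05. Over all genes 8.72% were called and 21.2% passed that unadjusted p. The microglia markers had a median log2 fold change of 0.36. Their summed level was 40.1 FPKM in Rheb cKO and 32.1 FPKM in Control. Cd68 (0.69, q = 0.0933) and Aif1 (-0.10, q = 0.904) had the highest FPKM of them averaged over both groups, with these folds in the authors' deposited table. C1qa, chosen after its values were seen, stood above Aif1 in Rheb cKO, at 7.09 FPKM in Rheb cKO and 4.38 FPKM in Control (0.69, q = 0.0685 by Cuffdiff in the authors' deposited table).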
